A study of Mus musculus with 14 samples.

Results

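Heat shock proteins and chaperones are the proteins that fold, refold and hand over other proteins. The genes described here were taken by symbol from the count table of natural killer (NK) cells: names beginning with Hspa, Hspb, Hspd, Hspe, Hsph, Dnaj, Cct and a digit, Bag and a digit, Fkbp or Pfdn, together with Tcp1, Stip1, Ahsa1, Chordc1, Ptges3 and Cacybp. The rule found 84 members among 10210 listed genes, and 75 of them passed the filter on low counts, which left 8471 genes tested. Grouped by symbol, the 84 members comprise 13 genes of the HSP70 and HSP110 group, Hspbp1 among them, and 33 J-domain proteins. There are also 8 subunits of the cytosolic chaperonin TRiC, 5 prefoldin subunits, 6 BAG proteins and 9 FKBP immunophilins. The rest are the 2 subunits of the mitochondrial chaperonin, 5 co-chaperones of HSP90 and 3 genes named as small heat shock proteins. The HSP90 genes themselves fall outside the rule and are given below as pathway genes.

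The study asked what state NK cells are in within 4T1 tumours and how fibroblasts of the tumour may influence them. 4T1 cells come from a mammary carcinoma of the mouse and serve as a stand-in for triple-negative breast cancer; here they carried GFP, and 100000 of them were injected into the lower left mammary fat pad of BALB/c females aged 8 weeks. RNA was read from the 3′ ends of polyadenylated transcripts in 3 libraries of NK cells from spleens of healthy BALB/c mice, 4 of NK cells from spleens of mice bearing 4T1-GFP tumours, and 4 of NK cells that had infiltrated those tumours. The labels call the libraries of a group repetitions or independent replicates and do not say whether mice were pooled, so p-values measure the spread between these libraries. The labels name no deleted gene and no drug in any group. All NK cells were enriched magnetically and then sorted as GFP-, EPCAM-, CD45+, CD3-, CD31-, CD14- and NKp46+ cells. Tumours went through digestion in collagenase A and DNase (20 min at 37 °C), whereas spleens were crushed and cleared of red cells on ice, so tissue of origin and warm digestion cannot be told apart in any comparison of tumour with spleen. In bulk libraries, fewer cells of a type and less RNA per cell cannot be told apart either.

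HSP70 proteins bind exposed stretches of unfolded clients in a cycle driven by ATP: J-domain proteins deliver clients and start ATP hydrolysis, and HSP110 and BAG proteins release the bound nucleotide. STIP1 passes clients from HSP70 to HSP90, whose cycle is tuned by AHA1, the p23 protein encoded by Ptges3 and the immunophilins FKBP4 and FKBP5, while TRiC with prefoldin folds actin and tubulin. In the cytosol many of these genes are driven by the heat shock factor HSF1 through heat shock elements, and in the endoplasmic reticulum (ER) BiP, the product of Hspa5, and its J-domain partners are driven by the unfolded protein response.

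The promoters below are shown because the largest difference among the members was in a pair of near-identical genes and because the other members with a marked difference fall into groups with and without these motifs. They are RefSeq sequences of build GRCm38.p6, written 5′ to 3′ on the strand of the gene, and 71 of the 84 members had a promoter in that table. Hspa1a and Hspa1b, the stress-inducible HSP70 genes, lie on chromosome 17 on the minus strand, with 9951 bases between them. The 250 bases before their starts, at chr17:34972157-34972406 and chr17:34959239-34959488, were identical at 247 positions, and each held the heat shock element in capitals 96 bases before the start.
Hspa1a: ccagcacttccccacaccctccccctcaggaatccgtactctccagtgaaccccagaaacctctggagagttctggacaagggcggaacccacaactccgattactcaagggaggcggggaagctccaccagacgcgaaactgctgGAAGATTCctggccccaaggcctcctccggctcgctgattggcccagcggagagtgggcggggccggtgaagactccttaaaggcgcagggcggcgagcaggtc
Hspa1b: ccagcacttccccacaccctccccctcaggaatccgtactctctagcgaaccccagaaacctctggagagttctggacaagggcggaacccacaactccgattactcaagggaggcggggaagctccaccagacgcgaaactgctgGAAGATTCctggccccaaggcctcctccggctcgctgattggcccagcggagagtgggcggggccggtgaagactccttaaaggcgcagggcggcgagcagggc

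Windows of 30 bases follow for 5 further members whose levels are described below, with the matched motif in capitals. They lie at chr5:149636351-149636380 on the minus strand (Hsph1), chr6:128438789-128438818 on the minus strand (Fkbp4), chr1:55088055-55088084 on the plus strand (Hspe1), chr5:29735843-29735872 on the plus strand (Dnajb6) and chr2:34772019-34772048 on the plus strand (Hspa5).
Hsph1: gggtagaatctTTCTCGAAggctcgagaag
Fkbp4: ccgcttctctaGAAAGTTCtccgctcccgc
Hspe1: tccgttctaGAACCTTCCGGAAggccccgc
Dnajb6: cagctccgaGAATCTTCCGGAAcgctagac
Hspa5: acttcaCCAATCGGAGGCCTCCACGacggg

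The heat shock element was searched as GAANNTTC or TTCNNGAA on both strands of the 250 bases before each start. It was present for 15 of 71 members (21.1%), against 991 of 8205 genes of the NK table with a promoter (12.1%) and 3932 of 27025 genes in all (14.5%). Of 15 members with a promoter on a list of known HSF1 targets, 8 held it (53.3%). A longer form of 3 units, GAANNTTCNNGAA or TTCNNGAANNTTC, which overlaps the shorter one, was present for 3 members (4.23%), Hspd1, Hspe1 and Dnajb6, against 0.451% of the table's genes and 0.514% of all genes. Hspd1 and Hspe1 lie head to head on chromosome 1 with 112 bases in common. The Hspd1 window that held the longer form, chr1:55087933-55088182, overlaps the window of Hspe1. The Hspd1 window before its other start, chr1:55088244-55088493, held 0. The ER stress element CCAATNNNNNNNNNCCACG, searched on both strands, was present for Hspa5 and Dnajc3 (2.82% of members, 0.183% of the table's genes, 0.13% of all genes). Neither motif was in the window of Stip1, Ahsa1, Dnajb9, Dnajb1, Bag3 or Fkbp5. A match is a run of letters and not a shown binding site. Only exact matches in the 250 bases before the listed starts were searched. Sites with other letters or outside these windows would be missed, so a window without a match does not show that a gene lacks the element.

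Total counts per library ran from 559688 to 1966963. Levels are given as CPM, counts scaled to a common library size after TMM adjustment, and 3 counts, the limit that a count of 0 allows, correspond to 1.53 to 5.36 CPM of the unscaled totals. On the second principal component of all genes (15.3% of the variance, after 56.4% on the first), tumour-bearing spleen libraries 1 and 2 and healthy spleen library 1 lay on one side and the other 4 spleen libraries on the opposite side. These are called side a and side b below. The labels give no batch that corresponds to them. Healthy library 1 lay farthest out, at 47.6, with tumour-bearing libraries 1 and 2 at 13.2 and 12.6. The other 4 spleen libraries lay at -6.28 to -23.9. Healthy library 1 also had the fewest counts (559688) and the largest TMM factor (1.1676). Side a of the healthy group is thus 1 library that stood apart from the others of its side. The sides were read from these same counts, so fits within a side or with side as a block have their spread lowered by that choice. Adjusted p-values and calls from such fits are given as description and do not add to those with all libraries. Levels of marker lists and of single markers in this paragraph are CPM of the unscaled totals. The NK marker list took 1.75 to 2.11% of counts in tumour libraries, 2.51 to 2.84% in tumour-bearing spleens and 2.66 to 3.07% in healthy spleens. Macrophage markers (7 of 9 listed) summed to 216 CPM in tumour library 3, 36.5 to 40.7 in the other tumour libraries and 10.7 to 28.0 in spleens, with Csf1r at 0 in every spleen library and in tumour libraries 1 and 4. Neutrophil markers (4 of 6 listed) summed to 55.7 to 153 CPM in tumours and 1.40 to 11.9 in spleens, and carcinoma or epithelial markers (2 of 6 listed, no keratin among them) to 25.0 to 51.0 and 0 to 3.57. Most of the latter sum was Cdh1, with 58, 32, 44 and 50 counts in the tumour libraries, where Epcam had 9, 2, 2 and 5. Of the dendritic list (1 of 6 listed) H2-Ab1 stood at 109 to 145 CPM in tumours and 19.7 to 63.5 in spleens, and of the endothelial list (1 of 5) Pecam1 at 131 to 185 and 48.2 to 93.0. T cell markers (3 of 6 listed) summed to 106 to 144 CPM in tumour-bearing spleens, 50.03 to 79.3 in healthy spleens and 59.2 to 98.1 in tumours. These marker sums move with the comparisons, the T cell sum with the tumour-bearing spleens, and their part in the differences below was not tested.

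Members took 0.848, 0.834 and 0.768% of counts in healthy spleens, 0.938, 0.992, 0.922 and 0.906% in tumour-bearing spleens, and 0.875, 0.907, 0.905 and 0.864% in tumours. The share was lowest in the healthy group, did not overlap between the groups of spleens, and overlapped between tumour and tumour-bearing spleen at 0.907 and 0.906%. Its means in healthy spleen, tumour-bearing spleen and tumour were 0.817, 0.939 and 0.888% of totals and 0.764, 0.931 and 0.956% of the TMM sizes, so the order of tumour and tumour-bearing spleen turned with the scaling. The heat map of members shows where single genes differed within this share.

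**Figure D1:**
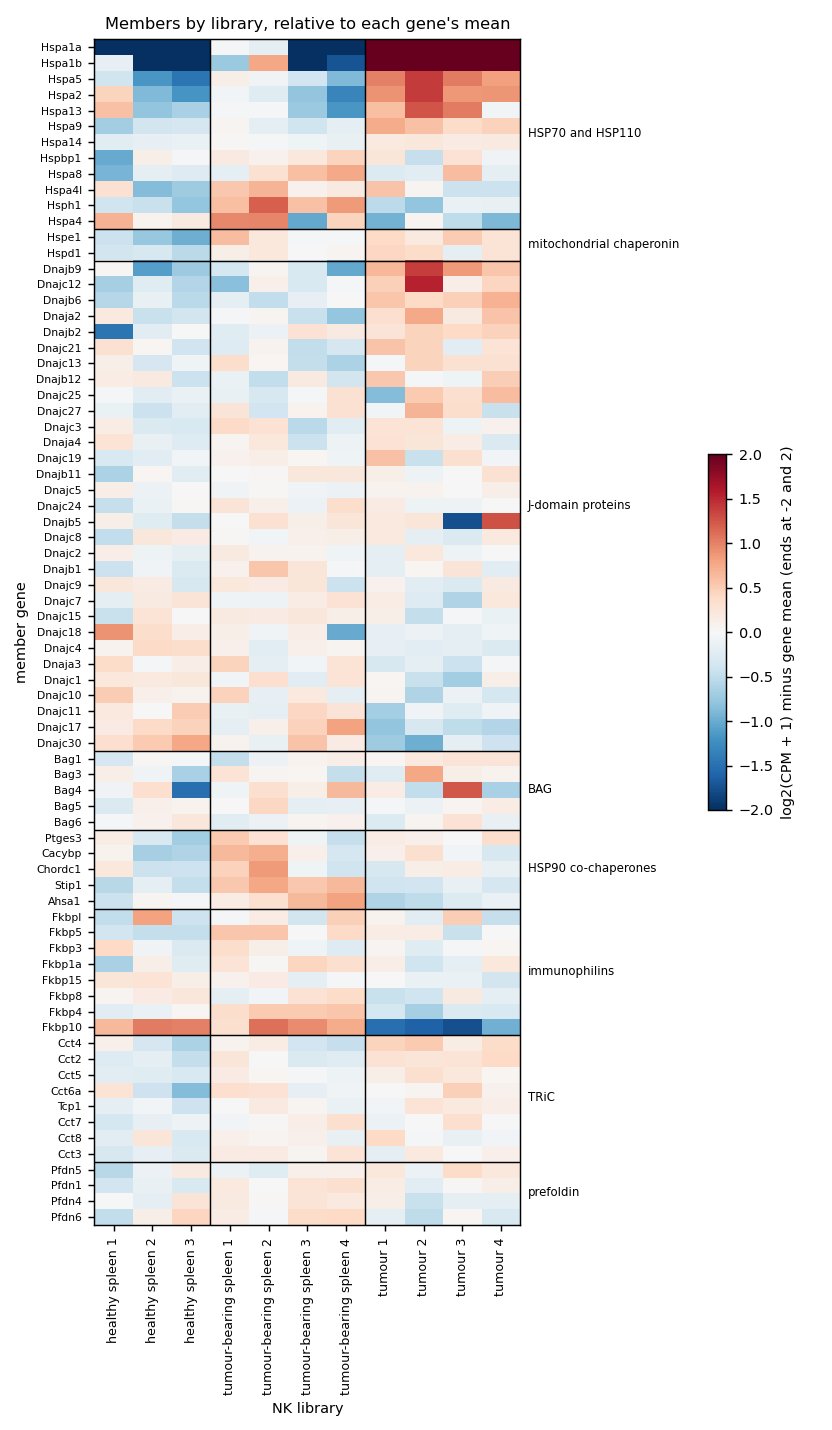
Each row is 1 of the 75 tested members, grouped by family, and each column 1 of the 11 NK libraries; colour is log2(CPM + 1) minus the gene's mean over libraries, with the scale ending at -2 and 2. Hspa1a, Hspa1b, Hspa5 and Hspa2 are above their means in all 4 tumour libraries, Fkbp10 is below its mean there, and Hsph1 and Stip1 are above theirs in the 4 tumour-bearing spleens.

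Tumour NK cells were first compared with NK cells from spleens of tumour-bearing mice. By edgeR's quasi-likelihood test, called where the Benjamini-Hochberg adjusted p was below 0.05, 11 members were higher and 8 lower in tumours, and 56 were not called. That is 25.3% of tested members, beside 29.0% of all genes (15.8% higher and 13.2% lower), so the family as a whole was not called more often than other genes. The groups did not overlap for 18 of the tested members, beside 29.7% of all genes (16.5% higher and 13.3% lower). The median log2 fold change was -0.01 over members and 0 over all genes. The members that rose were Hspa1a, Hspa1b, Hspa2, Hspa5, Hspa9 and Hspa13 of the HSP70 genes, the J-domain genes Dnajb9, Dnajb6, Dnaja2 and Dnajc12, and Cct4 of TRiC. Those that fell were the HSP110 genes Hsph1 and Hspa4, the HSP90 partners Stip1, Ahsa1 and Fkbp4, and Fkbp10, Dnajc17 and Dnajc30. Against side a spleens alone 13 of these 19 were called, and against side b alone 17.

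Against NK cells from healthy spleens, 17 members were higher and 4 lower in tumours by the same test. This is 28% of the tested members, beside 30.5% of all genes (16.5% higher and 14.0% lower). The groups did not overlap for 27 members, beside 34.8% of all genes (18.5% higher and 16.3% lower). The median log2 fold change was 0.29 over members and 0.02 over all genes. Of the 21 called members 8 were called against side a alone, which is a single healthy library, and 19 against side b alone. Both comparisons share the 4 tumour libraries, so their values are set side by side and are not independent.

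Between the spleens of tumour-bearing and healthy mice, 5 members were higher and 0 lower, which is 6.67% of tested members beside 1.58% of all genes (1.23% higher and 0.354% lower). The 5 were Hsph1, Stip1, Hspe1, Fkbp5 and Fkbp4. At an unadjusted p under 0.05, 19 members passed in this comparison, and DESeq2 also called 5 higher and 0 lower. The spleen groups did not overlap for 14 members, 13 higher and 1 lower, beside 12.2% of all genes (6.52% higher and 5.71% lower). The count of 5 fell to 2 without healthy spleen library 2 or 3 and to 3 without tumour-bearing library 2. It stood at 16 when the side of the spleen libraries was a block in a fit of the 7 spleen libraries. In that fit 443 genes in all were higher and 248 lower, and its block was itself read from these counts. The 2 comparisons that involve tumour-bearing spleens share those 4 libraries, so a gene that is high in them counts in both.

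**Figure D2:**
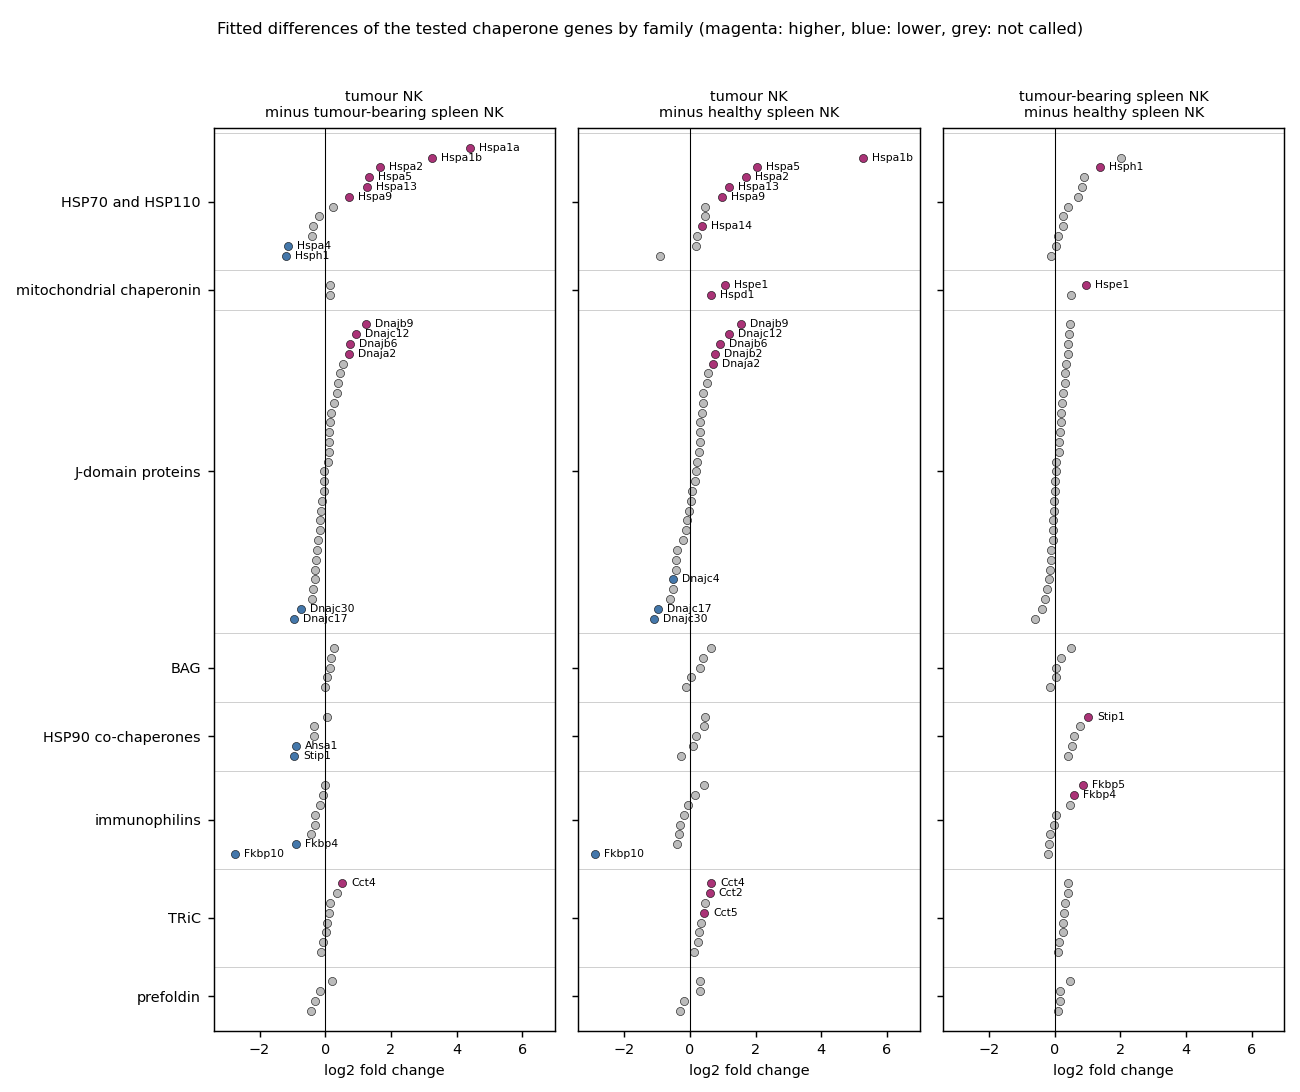
Fitted log2 fold change (horizontal axis) of each tested member by family in the 3 comparisons; magenta marks members called higher, blue called lower, grey not called. Hspa1a is drawn only in the left panel because all healthy libraries had 0 counts; the called members are spread to both sides in the left panel and lie on the higher side in the right panel.

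In the HSP70 and HSP110 group, 6 of 12 tested members were higher and 2 lower in tumours than in tumour-bearing spleens. The shares of all genes there were 15.8% and 13.2%. Against healthy spleens 7 members were higher and 0 lower, beside 16.5% and 14.0% of all genes. DESeq2 called 5 higher and 0 lower against healthy spleens, and at an unadjusted p under 0.05 edgeR had 7 and 0. Hspa1a was at 46.7, 40.6, 39.7 and 25.7 CPM in the tumour libraries, at 3.81, 3.35, 0 and 0 in tumour-bearing spleens and at 0 in all 3 healthy spleens. Hspa1b was at 47.6, 52.2, 42.1 and 46.6 CPM in tumours, 3.81, 12.8, 0.515 and 1.45 in tumour-bearing spleens, and 6.16, 0 and 0 in healthy spleens. All tumour libraries were above all spleen libraries for both genes, and the spleen libraries with more than 3 CPM were those of side a.

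The log2 fold change of tumour over tumour-bearing spleen was 4.40 ± 0.531 (SE) for Hspa1a (adjusted p = 3.21e-05, edgeR) and 3.26 ± 0.636 for Hspa1b (adjusted p = 0.003063, edgeR). These values join unlike sides. Against side a alone they were 3.39 (adjusted p = 6.06e-09) and 2.37 (adjusted p = 2.06e-07, edgeR). Against side b, where Hspa1a had 0 counts, it was at least 42.3-fold higher with a floor of 3 counts over the 2 libraries, and Hspa1b, with 3 counts there, was 51.1-fold higher (95% interval of counting 17.2 to 249.5). Leaving out 1 library moved the log2 values between 3.91 and 5.01 for Hspa1a, the highest without tumour-bearing library 2, and between 2.82 and 4.67 for Hspa1b, again the highest without that library. Against healthy spleens, where Hspa1a had no count, its tumour mean of 38.2 CPM was at least 47.5-fold higher, taking 3 counts over the group as the floor. Hspa1b was higher by 5.28 ± 0.983 there (adjusted p = 0.002223, edgeR), from 4 counts in healthy library 1. Against that library alone it was higher by 2.88 (adjusted p = 0.0005178, edgeR), and against the other 2, which had 0 counts, at least 48.4-fold higher. Without healthy library 2 or 3 the value was 4.34 or 4.71. How reads that match both of these similar genes were counted is not given in the sources used here. The sum of the 2 was therefore taken as well, and reads left out of both genes would be missing from it. It was 85.3 ± 10.3 CPM (SD, n = 4) in tumours, 6.44 ± 7.22 (n = 4) in tumour-bearing spleens and 2.06 ± 3.56 (n = 3) in healthy spleens, from 391, 42 and 4 counts.

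Hspa5, which encodes the ER HSP70 BiP, was at 857, 1122, 872 and 749 CPM in tumours, 463, 404, 325 and 230 in tumour-bearing spleens and 322, 189 and 154 in healthy spleens. The tumour libraries lay above every spleen library, and the side a spleens were the highest of their groups. Its log2 fold change was 1.34 ± 0.239 against tumour-bearing spleens (adjusted p = 0.0007621) and 2.04 ± 0.276 against healthy spleens (adjusted p = 6.38e-05). Between the spleens it differed by 0.70, which was not called (adjusted p = 0.2926, edgeR), although it was called without healthy library 1 (1.05, adjusted p = 0.02982) and with the side as a block (0.59, adjusted p = 0.001366).

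Hspa9, the mitochondrial HSP70 that pulls proteins in during import, was at 102, 91.3, 78.2 and 83.7 CPM in tumours, 63.3, 53.0, 45.8 and 52.8 in tumour-bearing spleens and 37.0, 46.6 and 47.9 in healthy spleens. Tumour libraries did not overlap either spleen group. The log2 fold changes were 0.72 ± 0.153 (adjusted p = 0.001369) and 0.99 ± 0.176 (adjusted p = 0.000247, edgeR). Hspa2, a cytosolic HSP70 best known from the testis, was at 17.2, 24.6, 16.8 and 17.1 CPM in tumours, 8.38, 7.26, 4.63 and 2.89 in tumour-bearing spleens and 12.3, 4.28 and 3.30 in healthy spleens. Every tumour library was above every spleen library, with the side a spleens nearest. It rose by 1.67 ± 0.357 against tumour-bearing spleens (adjusted p = 0.001505), while against healthy spleens the value of 1.71 (adjusted p = 0.004389, edgeR) was 0.56 and not called against the single side a library (adjusted p = 0.5239).

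Hspa13, a microsomal HSP70 relative, overlapped between the groups at 17.2, 27.5, 23.5 and 10.5 CPM in tumours, 10.7, 10.6, 6.18 and 4.34 in tumour-bearing spleens and 17.0, 5.89 and 6.60 in healthy spleens. Its rise of 1.28 ± 0.365 against tumour-bearing spleens (adjusted p = 0.01237, edgeR) was not called without tumour library 3 (1.14, adjusted p = 0.05771) or against side a alone (0.86, adjusted p = 0.07459). Its rise of 1.18 against healthy spleens (adjusted p = 0.0396) was not called without any 1 of 6 libraries: tumour 1, 2 or 3, healthy 2 or 3, or tumour-bearing 1. Against the side a healthy library alone it was 0.18 (adjusted p = 0.8636), and DESeq2 did not call it either (1.11, adjusted p = 0.07472). Hspa14, an HSP70 relative bound to ribosomes, was higher than in healthy spleens by 0.36 (adjusted p = 0.0397, edgeR), a call not made by DESeq2 (0.34, adjusted p = 0.08228) or without any 1 of 10 libraries.

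The HSP110 gene Hsph1, whose product releases nucleotide from HSP70, went the other way. It was at 83.6, 69.6, 110 and 108 CPM in tumours, 184, 277, 181 and 218 in tumour-bearing spleens and 90.9, 88.8 and 70.2 in healthy spleens. The tumour-bearing spleens stood above both other groups, which overlapped each other. Hsph1 fell by 1.19 ± 0.17 on the log2 scale from tumour-bearing spleen to tumour (adjusted p = 2.24e-05) and was 1.37 ± 0.189 higher in tumour-bearing than in healthy spleens (adjusted p = 0.0003655, edgeR). Tumour against healthy spleen gave 0.18 (adjusted p = 0.5192).

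Hspa4, another HSP110-type gene, was at 8.20, 17.4, 11.4 and 8.56 CPM in tumours, 33.5, 34.1, 7.72 and 23.1 in tumour-bearing spleens and 27.7, 17.7 and 19.0 in healthy spleens. Groups of tumour and tumour-bearing spleen overlapped through tumour-bearing library 3. The call of -1.14 ± 0.404 (adjusted p = 0.04462, edgeR) was not made without any 1 of 8 libraries, namely tumour 1, 3 or 4, tumour-bearing 1, 2 or 4, or healthy 2 or 3. It was -1.63 against side a (adjusted p = 4.19e-05) and -0.46 and not called against side b.

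Hspa8, the constitutive HSP70, was at 396, 410, 739 and 422 CPM in tumours, 425, 591, 731 and 810 in tumour-bearing spleens and 251, 419 and 400 in healthy spleens. Tumour library 3 stood at 739 beside 396 to 422 in the other 3, and it was also the library with the highest macrophage marker sum. Hspa8 was not called in any comparison by edgeR with all libraries (-0.37, adjusted p = 0.2858, for tumour against tumour-bearing spleen), and it was lower by that comparison without tumour library 3 (-0.66, adjusted p = 0.03012) and against side b alone (-0.68, adjusted p = 0.01172). Between the spleens the groups did not overlap and the difference of 0.83 was not called (adjusted p = 0.1963), while with side as a block it was 0.95 (adjusted p = 5.23e-07). Hspa4l was not called in any comparison with all libraries, with 0.89 ± 0.321 between the spleens (adjusted p = 0.2263, edgeR). It was called there with side as a block (0.74, adjusted p = 0.04431) and in tumours against side b healthy spleens (0.80, adjusted p = 0.04824).

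**Figure D3:**
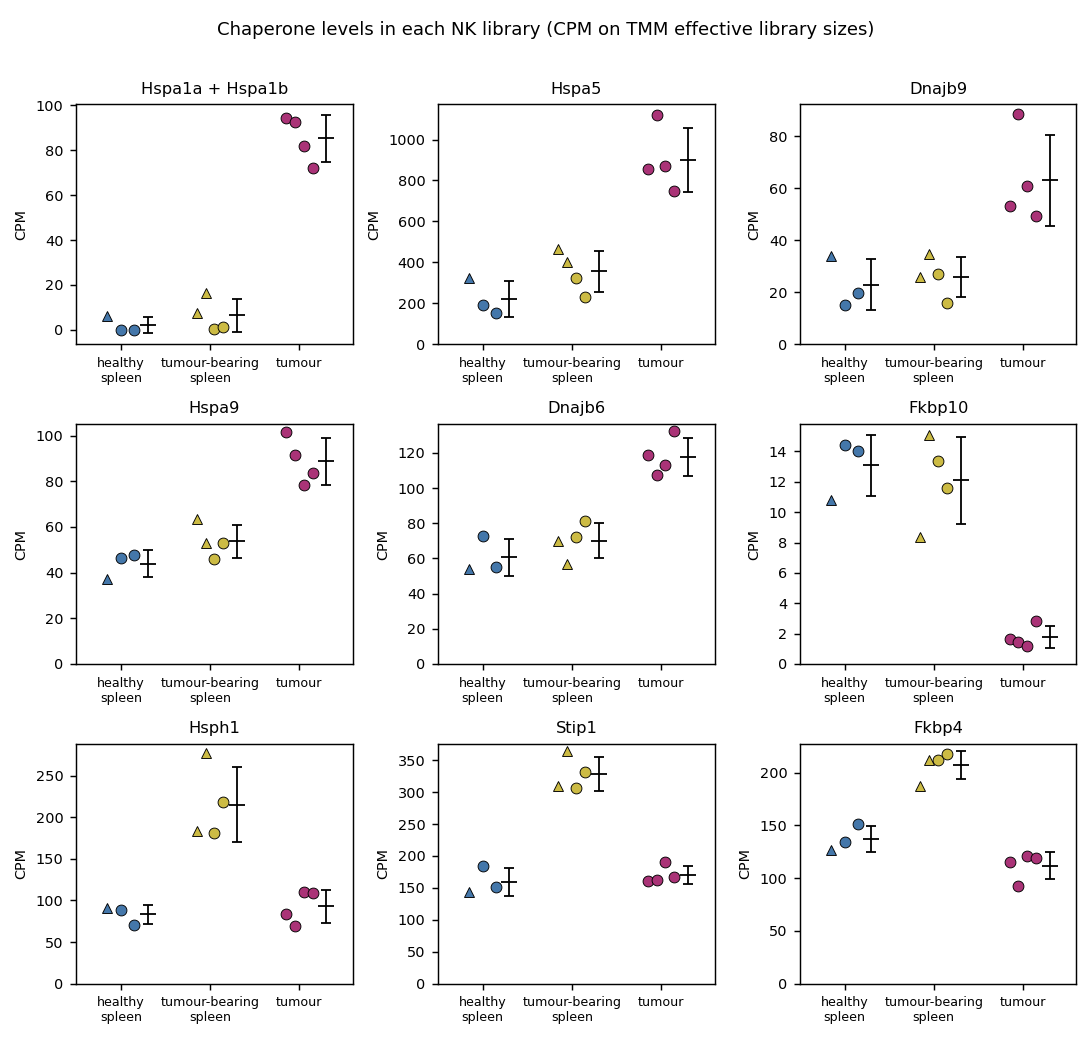
CPM (vertical axis, 0 included) of 8 members and of the sum of Hspa1a and Hspa1b in each NK library by group; triangles are side a spleen libraries, circles all others, and the bar beside each group is its mean ± SD. In the upper 5 panels the 4 tumour libraries lie above every spleen library, for Fkbp10 they lie under them, and for Hsph1, Stip1 and Fkbp4 the 4 tumour-bearing spleens lie above both other groups.

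Of 31 tested J-domain genes, 4 were higher and 2 lower in tumours than in tumour-bearing spleens, beside 15.8% and 13.2% of all genes. Against healthy spleens 5 were higher and 3 lower, beside 16.5% and 14.0% of all genes. Between the spleens 0 were called by edgeR with all libraries, beside 1.58% of all genes. With side as a block Dnajb11 was called there (0.40, adjusted p = 0.04265). Between the spleens 2 passed an unadjusted p under 0.05, and DESeq2 called 0. The family's median log2 fold change was -0.03 against tumour-bearing spleens and 0.19 against healthy spleens, the latter turning to -0.01 when library totals replaced TMM.

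Dnajb9, which encodes the ER J-domain protein ERdj4, a partner of BiP, was at 53.3, 88.4, 60.7 and 49.4 CPM in tumours, 25.9, 34.6, 26.8 and 15.9 in tumour-bearing spleens and 33.9, 15.0 and 19.8 in healthy spleens. No tumour library overlapped a spleen library. It rose by 1.24 ± 0.25 (adjusted p = 0.0009611) and 1.55 ± 0.298 (adjusted p = 0.0005771, edgeR) against the 2 spleen groups, the second not called against the single side a healthy library (0.84, adjusted p = 0.1218). The other ER partners Dnajb11 (-0.03, adjusted p = 0.9101) and Dnajc3 (0.11, adjusted p = 0.7185) were not called against tumour-bearing spleens with all libraries, while Dnajc3 was against side b alone (0.48, adjusted p = 0.04958). Dnajc3 has the same ER stress element as Hspa5 in its promoter.

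Dnajb6, a cytosolic and nuclear J-domain protein that restrains aggregation, was at 119, 107, 113 and 132 CPM in tumours, 70.1, 56.9, 72.1 and 81.0 in tumour-bearing spleens and 53.9, 72.8 and 55.3 in healthy spleens. Again the tumour libraries were all above the spleens, with rises of 0.76 ± 0.149 (adjusted p = 0.0006985) and 0.93 ± 0.168 (adjusted p = 0.0002833, edgeR). Against side a alone the rises were 0.90 (adjusted p = 0.0002292, edgeR) and, with a single healthy library, 1.11. Both fits reuse the same tumour libraries, and their values are given as description only.

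Dnaja2, a general cytosolic partner of HSP70, was at 55.7, 75.4, 49.9 and 65.6 CPM in tumours and 42.7, 45.8, 31.9 and 25.3 in tumour-bearing spleens, without overlap. The rise of 0.73 ± 0.208 (adjusted p = 0.01209, edgeR) was not called against side a alone (0.44, adjusted p = 0.1376) or with library totals (0.61, adjusted p = 0.0561). Healthy spleens, at 50.85, 32.1 and 33.8 CPM, overlapped the tumours, which were higher by 0.70 (adjusted p = 0.03088, edgeR). That call was not made without healthy library 2 or 3 or tumour library 2 or 4, nor with library totals (0.49, adjusted p = 0.159). Dnajc12 was at 14.8, 31.9, 11.4 and 14.3 CPM in tumours and 5.34, 11.2, 8.24 and 10.1 in tumour-bearing spleens. Its groups did not overlap, but its call (0.93, adjusted p = 0.04215) was not made without any 1 of 6 libraries, among them tumour library 2, which held its highest value (0.60, adjusted p = 0.1819); the others were tumour 1 or 4 and tumour-bearing 1, 3 or 4. DESeq2 did not call it (0.97, adjusted p = 0.06783).

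The J-domain genes that fell in tumours against both spleen groups were Dnajc17, which works in splicing, and Dnajc30, a mitochondrial protein. Dnajc17 was at 12.3, 17.4, 15.0 and 14.3 CPM in tumours, 19.1, 23.4, 30.4 and 39.1 in tumour-bearing spleens and 24.7, 28.9 and 30.5 in healthy spleens. It fell by 0.94 ± 0.245 (adjusted p = 0.00695) and 0.96 ± 0.269 (adjusted p = 0.01041, edgeR), and neither call was made against side a alone. Its exons overlap those of Zfyve19 on the opposite strand, which fell by 0.98 (adjusted p = 0.004362), and strand use in counting is not given in the sources used here, so reads of the 2 genes may not be told apart. Dnajc30 fell by 0.73 (adjusted p = 0.0366, edgeR) and 1.11 (adjusted p = 0.003964), the first not called without tumour-bearing library 3 (-0.56, adjusted p = 0.1489) or 4, or without tumour library 1, 2 or 4, nor against side a alone (-0.48), nor by DESeq2 (-0.75, adjusted p = 0.07596). Against the single side a healthy library Dnajc30 was at -0.89, which was not called. Its exons overlap Bud23, which was not called (-0.24, adjusted p = 0.1629).

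Against healthy spleens, Dnajc4, a little-studied J-domain gene, was lower in tumours by -0.51 (adjusted p = 0.01291) and Dnajb2, a partner of HSP70 known from neurons, higher by 0.75 (adjusted p = 0.03557, edgeR). Both calls depended on single libraries: Dnajc4 was not called without healthy library 2 or 3, and Dnajb2 without healthy 1 or 2 or without tumour 2, 3 or 4, nor by DESeq2 (0.74, adjusted p = 0.05475). Dnajb1, the classical heat-inducible J-domain gene, was not called, at 80.3, 94.2, 110 and 78.9 CPM in tumours, 97.6, 135, 108 and 90.4 in tumour-bearing spleens and 67.8, 87.2 and 75.1 in healthy spleens. Its tumour libraries thus lay within the range of the spleens, with a difference of -0.25 (95% interval -0.58 to 0.08) against tumour-bearing spleens.

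Of the 5 HSP90 co-chaperones, 0 were higher and 2 lower in tumours than in tumour-bearing spleens, beside 15.8% and 13.2% of all genes. In tumour-bearing against healthy spleens 1 was higher, beside 1.23% of all genes. Stip1, the adaptor between HSP70 and HSP90, was at 161, 162, 191 and 167 CPM in tumours, 310, 364, 307 and 331 in tumour-bearing spleens and 143, 184 and 151 in healthy spleens. The tumour-bearing spleens again stood above both other groups, and tumours overlapped healthy spleens. Stip1 fell by 0.94 ± 0.127 from tumour-bearing spleen to tumour (adjusted p = 1.21e-05) and was 1.03 ± 0.14 higher in tumour-bearing than in healthy spleens (adjusted p = 0.0003443, edgeR). The second value was 1.22 on side a (adjusted p = 0.01168) and 0.94 on side b (adjusted p = 0.001386); for Hsph1 it was 1.33 on each side (adjusted p = 0.03509 and 0.0002379, edgeR).

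Ahsa1, which speeds the ATPase of HSP90, was at 68.0, 72.5, 85.4 and 94.1 CPM in tumours, 115, 130, 164 and 182 in tumour-bearing spleens and 77.1, 108 and 102 in healthy spleens. It fell by 0.88 ± 0.166 from tumour-bearing spleen to tumour (adjusted p = 0.0004674), with no overlap. The difference between spleens of 0.60 was not called (adjusted p = 0.1082, edgeR) and was 0.70 with side as a block (adjusted p = 0.0001756). Chordc1, Cacybp and Ptges3 were not called in any comparison with all libraries, and their values turned with the side. Against side a tumour-bearing spleens Chordc1 (-0.72) and Cacybp (-0.69) were lower in tumours (adjusted p = 0.00353 for each, edgeR), while against side b they stood at 0.15 and 0.06, not called. Against side b healthy spleens Cacybp (0.64, adjusted p = 0.0131) and Ptges3 (0.61, adjusted p = 0.02286) were higher in tumours, and against the side a healthy library at -0.08 and -0.01. Between the spleens Cacybp was called with side as a block (0.59, adjusted p = 0.007559).

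Among the 8 tested immunophilins, 0 were higher and 2 lower in tumours than in tumour-bearing spleens, beside 15.8% and 13.2% of all genes. In tumour-bearing against healthy spleens 2 were higher, beside 1.23% of all genes. Fkbp4, a partner of HSP90 in steroid receptor complexes, was at 115, 92.7, 121 and 119 CPM in tumours, 188, 212, 212 and 218 in tumour-bearing spleens and 126, 134 and 151 in healthy spleens. The 3 groups did not overlap, with tumour-bearing spleens highest and tumours lowest. It fell by 0.88 ± 0.127 from tumour-bearing spleen to tumour (adjusted p = 2.64e-05) and was 0.59 ± 0.137 higher in tumour-bearing than in healthy spleens (adjusted p = 0.02795, edgeR). The latter call was not made without any 1 of the spleen libraries other than tumour-bearing library 1, nor within side a (0.65, adjusted p = 0.2822) or side b (0.61, adjusted p = 0.05208). The lower level in tumours than in healthy spleens, -0.29, was not called (adjusted p = 0.1287, edgeR). It was called with upper-quartile factors (-0.39, adjusted p = 0.03635) and with library totals (-0.49, adjusted p = 0.005827, edgeR) in place of TMM.

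Fkbp5, the glucocorticoid-induced partner of HSP90, was at 77.9, 78.3, 51.7 and 70.4 CPM in tumours, 104, 104, 70.5 and 92.6 in tumour-bearing spleens and 53.9, 50.3 and 50.4 in healthy spleens. The spleen groups did not overlap, and the tumour values reached into both. Its rise between the spleens of 0.85 ± 0.187 (adjusted p = 0.01965, edgeR) was not called without healthy library 2 or 3 or tumour-bearing library 1 or 2. Nor was the rise called when library totals replaced TMM (0.78, adjusted p = 0.06366) or within side b (0.70, adjusted p = 0.1351, edgeR). Within side a, with a single healthy library, the rise was 0.93 and not called. Against tumour-bearing spleens the tumour level of -0.43 was not called (adjusted p = 0.05901), and it was without tumour-bearing library 3 (-0.56, adjusted p = 0.01999) or healthy library 1, or with totals in place of TMM (-0.55, adjusted p = 0.02537).

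Fkbp10, an ER isomerase of collagen chains, was at 1.64, 1.45, 1.20 and 2.85 CPM in tumours, 8.38, 15.1, 13.4 and 11.6 in tumour-bearing spleens and 10.8, 14.5 and 14.0 in healthy spleens. The tumour libraries, with 2, 1, 2 and 3 counts, were far below all spleens. It fell by 2.76 ± 0.404 (adjusted p = 3.21e-05) and 2.89 ± 0.43 (adjusted p = 3.71e-05, edgeR) against the 2 spleen groups. Fkbp10 has too few counts in tumours for the naming rule and was chosen after its values were seen. Its exons overlap Nt5c3b on the other strand, which fell by 0.56 (adjusted p = 0.002012).

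The mitochondrial chaperonin folds imported proteins. Both of its subunits were higher in tumours than in healthy spleens, beside 16.5% of all genes. Hspe1, 1 of the 2, was also called higher between the spleens, beside 1.23% of all genes. The 2 genes lie head to head with 112 bases in common, so they are not counted as independent results. Hspe1, the co-chaperonin, was at 232, 203, 252 and 214 CPM in tumours, 272, 203, 172 and 174 in tumour-bearing spleens and 131, 104 and 89.1 in healthy spleens. Tumours and tumour-bearing spleens overlapped, and both lay above the healthy group. Hspe1 was 1.08 ± 0.18 higher in tumours (adjusted p = 0.000121) and 0.94 ± 0.178 higher in tumour-bearing spleens (adjusted p = 0.006948, edgeR) than in healthy spleens, the latter not called without healthy library 2 (adjusted p = 0.07922) or 3 (adjusted p = 0.07138), nor within side a (0.84, adjusted p = 0.1713).

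Hspd1, the barrel subunit, was at 134, 129, 87.2 and 121 CPM in tumours, 108, 116, 98.8 and 103 in tumour-bearing spleens and 77.1, 79.7 and 68.5 in healthy spleens. Both groups from tumour-bearing mice lay above the healthy group. It was 0.63 ± 0.164 higher in tumours than in healthy spleens (adjusted p = 0.00612, edgeR), not called with totals in place of TMM (0.44, adjusted p = 0.06298), and the difference between the spleens of 0.50 was not called (adjusted p = 0.1484), though with side as a block it was (0.47, adjusted p = 0.01604).

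TRiC subunits differed by small amounts. Of 8 tested, 1 was called higher in tumours than in tumour-bearing spleens, beside 15.8% of all genes. Against healthy spleens 3 were called higher, beside 16.5% of all genes. Cct4 was called higher in tumours against tumour-bearing spleens (0.51, adjusted p = 0.02832, edgeR), at 266, 280, 217 and 250 CPM against 205, 216, 149 and 141, with healthy spleens at 210, 154 and 126. The 2 groups did not overlap by a margin of 216.5 to 215.5 CPM, and the call was not made without tumour library 1, 2 or 4 or tumour-bearing library 3 or 4, nor against side a alone (0.25). Against healthy spleens Cct4 (0.65, adjusted p = 0.01216), Cct2 (0.60, adjusted p = 0.005066) and Cct5 (0.43, adjusted p = 0.02019, edgeR) were called higher, and 0 of 8 with library totals in place of TMM. Cct4 and Cct5 were each not called without healthy library 2 or 3, and Cct5 also without tumour library 2. Tcp1, the founding subunit, was not called against healthy spleens (0.35, adjusted p = 0.07034, edgeR), though it was without tumour library 1 (0.42, adjusted p = 0.04816). The median of the 8 subunits was 0.39 against healthy spleens, 0.18 with library totals, and 0.08 against tumour-bearing spleens, -0.04 with library totals.

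Neither prefoldin (4 tested) nor the BAG proteins (5 tested) had a called member in any comparison of all libraries by edgeR or DESeq2, and 48 members in all were called in none by edgeR. By side, Bag1 was higher against side a tumour-bearing spleens (0.47, adjusted p = 0.03057), Pfdn5 higher against the side a healthy library (0.73, adjusted p = 0.0184), Pfdn6 lower against side b of both spleen groups (-0.63, adjusted p = 0.001608, and -0.50, adjusted p = 0.009623), and Pfdn1 higher between the spleens with side as a block (0.50, adjusted p = 0.004267). At an unadjusted p under 0.05, prefoldin had 1 member in each comparison and the BAG proteins 0. Pfdn5, the member with the most counts, differed by 0.22 (95% interval -0.12 to 0.56) between tumour and tumour-bearing spleen. Bag3, which joins HSP70 to small heat shock proteins and is a classical heat shock gene, was at 18.9, 39.1, 24.7 and 23.8 CPM in tumours, 27.4, 23.4, 23.2 and 15.9 in tumour-bearing spleens and 24.7, 21.4 and 14.0 in healthy spleens. All groups overlapped, with a difference of 0.19 (95% interval -0.33 to 0.71) between tumour and tumour-bearing spleen. Hspb1, Hspb6 and Hspb11, grouped as small heat shock proteins by symbol only, had at most 11 counts in a library and were not tested.

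Set out by regulator and compartment, known HSF1 targets were called in both directions. Of 15 tested, 2 were higher (Hspa1a and Hspa1b) and 4 lower (Hsph1, Stip1, Ahsa1 and Fkbp4) in tumours than in tumour-bearing spleens, with a median of -0.33; 4 were higher and 0 lower than in healthy spleens, with a median of 0.39. Between the spleens 4 were higher and 0 lower, with a median of 0.78 beside 0 over all genes, and 11 were higher and 0 lower at an unadjusted p under 0.05. Of 9 tested ER members, 3 were higher (Hspa5, Hspa13 and Dnajb9) and 1 lower (Fkbp10) in tumours than in tumour-bearing spleens, and 0 were called between the spleens by edgeR or DESeq2 (2 at an unadjusted p under 0.05). Of 8 mitochondrial members, 1 was higher (Hspa9) and 1 lower (Dnajc30) against tumour-bearing spleens, and 3 higher and 1 lower against healthy spleens. Of 5 vesicle or nuclear J-domain proteins, 0 were higher and 1 (Dnajc17) lower in each comparison with tumour. Beside these counts, 15.8% of all genes were higher and 13.2% lower in tumours than in tumour-bearing spleens. Against healthy spleens these shares were 16.5% and 14.0%, and between the spleens 1.23% and 0.354%. The lists hold textbook members, were chosen with results of these data known, and carry no test of their own.

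**Figure D4:**
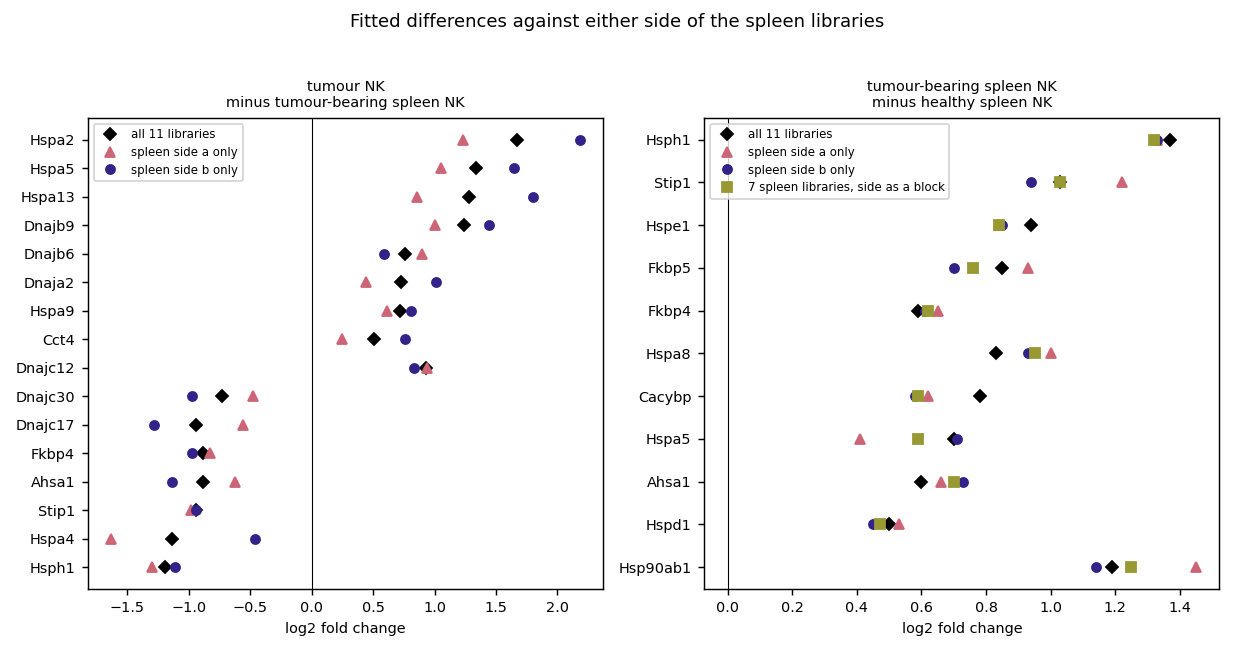
Fitted log2 fold change (horizontal axis) of named members and of Hsp90ab1 with all 11 libraries (diamonds), with side a spleens only (triangles), with side b spleens only (circles) and, at right, with side as a block in the 7 spleen libraries (squares). Each of the 16 genes drawn at left and 11 at right keeps 1 sign over the fits drawn in its panel; Hspa4 is -1.63 against side a and -0.46 against side b, and Hspa13 0.86 and 1.80.

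Other genes of the same pathways were read from a list of 43, of which 42 are in the table and 39 were tested. In tumours against tumour-bearing spleens 10 were higher and 4 lower, against healthy spleens 19 and 4, and between the spleens 1 and 0. The shares of all genes higher and lower were 15.8% and 13.2%, 16.5% and 14.0%, and 1.23% and 0.354%. The list was chosen with results of these data known and carries no test of its own. Of 16 ER folding and stress genes, 8 were higher and 0 lower against tumour-bearing spleens, and 13 and 0 against healthy spleens, which is the direction of Hspa5 and Dnajb9. The transcription factor Atf4 was at 770, 842, 685 and 740 CPM in tumours, 332, 373, 422 and 310 in tumour-bearing spleens and 321, 359 and 348 in healthy spleens. It rose by 1.08 ± 0.133 without overlap (adjusted p = 4.06e-06, edgeR). Xbp1, another factor of that response, rose by 0.56 (adjusted p = 0.002427), Atf6 by 1.00 (adjusted p = 0.001046), the disulphide isomerase Pdia3 by 0.62 (adjusted p = 0.005135) and calreticulin (Calr) by 0.50 (adjusted p = 0.01969, edgeR). Ddit3, the factor CHOP, was not called (0.24, adjusted p = 0.2954).

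Of the 4 HSP90 genes, Hsp90aa1, Hsp90ab1 and Hsp90b1 were called higher in tumours than in healthy spleens, beside 16.5% of all genes. Against tumour-bearing spleens 0 were called, beside 29.0% of all genes. Mean CPM in tumours, tumour-bearing and healthy spleens was 47.1, 38.6 and 25.6 for Hsp90aa1. It was 456, 399 and 282 for Hsp90b1 and 86.4, 89.3 and 80.6 for Trap1. Hsp90aa1 was not called without healthy library 3 or with library totals. Hsp90ab1, the constitutive cytosolic HSP90, was at 994, 856, 764 and 937 CPM in tumours, 848, 949, 953 and 1087 in tumour-bearing spleens and 325, 460 and 474 in healthy spleens. It was high in both groups from tumour-bearing mice, which overlapped, and low in healthy spleens. It was 1.19 higher in tumour-bearing than in healthy spleens (adjusted p = 0.0004003) and differed by -0.11 between tumour and tumour-bearing spleen (adjusted p = 0.6065, edgeR), where its co-chaperones Stip1, Ahsa1 and Fkbp4 fell. Hsf1 itself fell by 0.60 ± 0.145 in tumours against tumour-bearing spleens (adjusted p = 0.00384, edgeR), at 72.1, 71.0, 90.2 and 60.9 CPM against 101, 107, 113 and 131, with healthy spleens at 116, 133 and 118. The tumour libraries lay below every spleen library. Unc45a, a myosin chaperone that works with HSP90, rose by 0.94 (adjusted p = 9.37e-05).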

How the data were processed

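The deposited table holds whole-number counts per gene for 11 NK libraries; per the submitters' processing notes bcl2fastq, STAR 2.4.2a, HTSeq and the build mm10 were used, and per the labels' protocols the libraries were made from 3′ ends of mRNA. Annotation, strand setting, molecular identifiers and any filter the authors applied are not given in the sources used here; the smallest peak count of a listed gene was 6. The header of that table runs the names of tumour libraries 3 and 4 together, and they were read in that order. The 3 fibroblast libraries were not used here.

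Counts were analysed in R 4.3.3 with edgeR 4.0.16: filterByExpr on the 3 groups, TMM factors, robust quasi-likelihood fit of all 11 libraries without a block, and Benjamini-Hochberg adjustment over all tested genes, called under 0.05. Standard errors are those of the fitted log2 fold change. DESeq2 1.42.0, other scalings, no filter, fits of 2 groups, the replicate number as a block, either side of the spleens, and leaving out each library were alternatives. The fits were tested on simulated data. Intervals and floors cover counting error only where they come from counts.

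Members, lists and rules were chosen with earlier results of these data known. Named members are, per comparison, up to 12 called in each direction by size with a mean of at least 3 counts in the lower group, a set of textbook chaperones, and the most abundant member of each family; other called members were named after their values were seen. Promoters came from the RefSeq table of GRCm38.p6; protein sequences were not used here.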

Additional observations from a re-analysis of the deposited data

Results flagged for a closer look

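In 76 groups of 4 libraries, covering the named members in tumour and in tumour-bearing spleen NK cells, 3 single libraries stood apart from the rest by Dixon's ratio; chance marks about 1 in 20 such groups, and groups of 3 were not examined. Tumour library 2 held 24.6 CPM of Hspa2, where the other tumour libraries held 16.8 to 17.2. The same library held 31.9 CPM of Dnajc12, where the others held 11.4 to 14.8. Tumour library 3 held 739 CPM of Hspa8, where the others held 396 to 422.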

How the results depend on the processing

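Over 119 pairs of a gene and a comparison, 2407 values under alternatives were computed: 2168 kept direction and side of the threshold, 144 lost the call, 48 gained one and 47, none of them called in either fit, changed sign. The log2 values that did so were, for tumour against tumour-bearing spleen, with totals Tcp1 (-0.01), Ptges3 (-0.09) and Bag6 (-0.08), with upper-quartile factors Ptges3 (-0.06) and Bag6 (-0.06), on side a Hspe1 (-0.07) and Ptges3 (-0.26), and on side b Chordc1 (0.15), Cacybp (0.06) and Bag6 (-0.12). Against healthy spleen they were, with totals, Hsph1 (-0.03), Stip1 (-0.11), Chordc1 (-0.02) and Dnajc5 (-0.14), with upper-quartile factors Stip1 (-0.01) and Dnajc5 (-0.04), and on side a Hspa4l (-0.35), Ahsa1 (0.04), Chordc1 (-0.27), Ptges3 (-0.01), Cacybp (-0.08) and Dnajc5 (-0.09). Between the spleens they were Hspa4 (-0.30 on side b, -0.09 with side as a block), Hspa2 (-0.03 with totals, -0.01 by DESeq2, -0.68 on side a, -0.30 with side as a block), Dnajb9 (-0.16 on side a), Fkbp8 (0.16 on side b, 0.03 with side as a block) and Atf4 (-0.01 with totals). Over the fits that left out 1 library, values crossed 0 for Ptges3 (-0.11 to 0.17) and Bag6 (-0.10 to 0.12) against tumour-bearing spleen and, between the spleens, for Hspa2 (-0.25 to 0.57), Fkbp8 (-0.12 to 0.06), Dnajc5 (-0.11 to 0.02), Pfdn5 (-0.06 to 0.28) and Atf4 (-0.02 to 0.13). Members lower in tumours than in tumour-bearing spleens numbered 15 with library totals in place of TMM, and members lower than in healthy spleens 12 with totals and 7 with upper-quartile factors; members higher than in healthy spleens numbered 8 with totals. Totals moved the median of all genes by -0.12 and -0.181 in these comparisons and the share of higher genes among all calls from 54.5 to 37.7% and from 54.2 to 32.8% (upper quartile 41.6 and 42.4%); between the spleens it went from 77.6 to 65.9%, and to 64.1% with side as a block. With side a alone, tumour against healthy spleen gave 8 members higher and 2 lower and 1471 genes in all, and the spleens gave 2 higher and 38 in all; with side b alone 7 were lower in tumours than in healthy spleens. With side as a block the spleens gave 16 members higher and 691 genes in all. Leaving out 1 library gave 10 to 17 members higher in tumours than in healthy spleens, and 2 to 5 higher and 42 to 142 genes called between the spleens. Libraries share a replicate number that the labels do not tie to a mouse or day, and same-number deviations correlated at -0.0471 to 0.288 (tumour with tumour-bearing spleen), -0.195 to 0.0445 (tumour with healthy) and -0.353 to 0.501 (spleens), so the numbers were not taken as pairs; with the replicate number as a block there were 13 members lower against tumour-bearing spleens, 10 higher and 2 lower against healthy spleens with 1497 genes in all, and 9 higher between the spleens. The mean share of counts on members was 0.764, 0.931 and 0.956% on TMM sizes (healthy, tumour-bearing, tumour), and without Pfdn5 0.734, 0.855 and 0.798%. Depth limits members below the filter, with at most 16 counts in a library.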
